A study of Mus musculus with 28 samples.

Results

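The genes described are the core of the Notch pathway in the mouse mammary epithelium: the receptors Notch1, Notch2, Notch3 and Notch4, the ligands Jag1 and Dll1, and the targets Hes1, Hey1, Hey2 and Heyl. They are 10 of the 17097 genes with an annotated probe set, chosen by their role in the pathway, with earlier results of these data known. Of the 17 probe sets annotated to 1 of them alone, each gene was read from its brightest one, by the mean of all 28 arrays.

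Notch receptors are membrane proteins that are cut when a ligand on a neighbouring cell binds them. The freed intracellular domain enters the nucleus, joins the DNA-binding protein RBPJ and a Mastermind coactivator, and switches on target genes, of which the transcriptional repressors of the Hes and Hey families are the best known. The mammary gland has an inner luminal and an outer basal layer, and Notch signalling between neighbouring cells is known there for its part in luminal fate.

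RNA was measured on 28 arrays in 11 groups of flow-sorted mouse mammary cells, each array giving a log2 expression value for 45141 probe sets. All mice were females given 3 injections of 5 mg tamoxifen from the age of 4 to 5 weeks, and all carried the reporter RosaYFP and a tamoxifen-inducible Cre driven by a keratin promoter, K8CREERT2 in luminal or K5CREERT2 in basal cells. Some also carried PIK3CA-H1047R, an activated PI3-kinase catalytic subunit, and these are called PIK. The groups were K5-PIK tumours (K5CREERT2/PIK3CA-H1047R/RosaYFP, 3 arrays), K8-PIK tumours with p53flox/flox alleles as well (2 arrays), K8-PIK tumours (K8CREERT2/PIK3CA-H1047R/RosaYFP, 7 arrays), K5-PIK luminal and basal cells at 10 months after tamoxifen, and K8-PIK basal and luminal cells at 8 weeks after it. Normal cells, called YFP, were K5CREERT2/RosaYFP basal cells and K8CREERT2/RosaYFP luminal cells, each at 10 months and at 8 weeks. Every sorted group had 2 arrays. The normal layers thus differ in their Cre driver as well as in their gate. PIK cells sorted through the gate of the other layer share their driver with the layer that was targeted. No age is used here for the tumours. The labels do not say whether replicates are separate animals, so p-values measure how far these samples spread, which may be technical. With 2 arrays in each sorted group, a lack of overlap is common. Between YFP luminal cells of the 2 times 7 of the 10 genes did not overlap, and none was called. The share over all genes was not computed for this or any other comparison. Counts of genes without overlap below thus describe the arrays and are no evidence about these genes as a set.

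The gates of the normal cells held by their markers: Krt5 averaged 11.46 and 11.49 in YFP basal cells at 8 weeks and 10 months, against 7.77 and 7.14 in YFP luminal cells. PIK cells were less clear-cut: Krt5 averaged 10.6 in K8-PIK luminal and 8.68 in K5-PIK luminal cells, and Foxa1, a luminal transcription factor, averaged 7.97 in K8-PIK basal cells, against 4.25 in YFP basal cells at 8 weeks. Replicates correlated across genes at 0.919 to 0.995. YFP basal cells also held the most endothelial marker RNA, with a mean over 12 markers of 6.39 and 7.41 at 8 weeks and 6.14 and 7.17 at 10 months, and all 12 markers above the 40th percentile of each array. The same mean was 4.83 to 5.76 in YFP luminal cells and 4.44 to 5.92 in tumours. In such bulk samples, fewer cells of a type and less RNA per cell cannot be told apart.

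On the scale of array ranks Notch1, Notch2, Notch3, Jag1 and Hey1 were bright, with mean percentiles of 95.3, 92.7, 92.6, 95.1 and 87.4. Dll1 and Hes1 lay at the 80.1 and 79.7 percentiles. Heyl, Notch4 and Hey2 were dim, and only 19, 13 and 6 of 28 arrays had them above the 40th percentile, which lay between 3.89 and 3.99 on the log2 scale. Values of different probe sets are not compared as amounts of RNA. Second probe sets tracked the one used over 28 arrays at r = 0.987 for Jag1, 0.969 for Notch3 and 0.817 for Notch1, whereas those of Heyl reached 0.651 and 0.610 and those of Notch4 0.758 and 0.205. The values of the last 2 genes are therefore less certain.

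Promoter sequence was available for 7 of the 10 genes, in 8 windows of the 250 bases before a transcript start (RefSeq, GRCm38.p6), and 4 are shown: the ligands Jag1 and Dll1, which moved together, Notch3, which had the opposite order between the layers, and Hey2, a target. Capitals mark the RBPJ core motif TGGGAA on either strand. The Jag1 window is chr2:137116521-137116770, that of Dll1 chr17:15376933-15377182, that of Notch3 chr17:32166891-32167140 and that of Hey2 chr10:30842784-30843033, all on the minus strand.
Jag1: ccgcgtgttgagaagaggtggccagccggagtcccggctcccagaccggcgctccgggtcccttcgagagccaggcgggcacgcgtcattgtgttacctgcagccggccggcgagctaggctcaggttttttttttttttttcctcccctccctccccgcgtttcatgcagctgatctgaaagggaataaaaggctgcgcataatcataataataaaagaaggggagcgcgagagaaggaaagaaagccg
Dll1: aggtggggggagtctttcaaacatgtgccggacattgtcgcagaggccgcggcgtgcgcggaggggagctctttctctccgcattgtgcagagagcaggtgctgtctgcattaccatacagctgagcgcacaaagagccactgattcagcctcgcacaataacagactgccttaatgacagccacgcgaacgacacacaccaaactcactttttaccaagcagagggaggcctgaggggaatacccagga
Notch3: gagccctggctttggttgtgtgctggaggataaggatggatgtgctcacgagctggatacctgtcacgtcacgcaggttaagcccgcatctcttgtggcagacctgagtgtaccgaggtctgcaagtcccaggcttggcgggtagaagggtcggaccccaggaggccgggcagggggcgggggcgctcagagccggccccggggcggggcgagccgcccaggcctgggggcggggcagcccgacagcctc
Hey2: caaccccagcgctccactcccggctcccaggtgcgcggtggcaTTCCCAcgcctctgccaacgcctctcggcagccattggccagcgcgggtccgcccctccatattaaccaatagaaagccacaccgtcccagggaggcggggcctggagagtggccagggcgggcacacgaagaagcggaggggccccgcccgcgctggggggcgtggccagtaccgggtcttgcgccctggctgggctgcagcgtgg
Of the 8 windows only that of Hey2 held the core, written TTCCCA here, with its first base 207 bases before the start. Among 32851 windows of this length 21.6% held at least 1. The E-box CANNTG is a broad motif of many transcription factors and is not particular to Hes and Hey repressors. It occurred 3 times in the Dll1 window above and once each in those of Jag1 and Hey2, and not in that of Notch3. At least 1 E-box was found in 66.2% of all windows. Hes1, Hey1 and Heyl were named only.

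The first comparison was between the 2 layers of the normal gland. Of the 10 genes the ligand Dll1 differed most at both times. Dll1, a ligand of the Delta type, had 8.78 and 8.87 in YFP basal cells at 8 weeks, against 5.40 and 5.60 in YFP luminal cells. At 10 months it had 9.47 and 9.34 in YFP basal cells, against 5.49 and 5.56 in YFP luminal cells. Basal arrays stood far above luminal ones at both times, by 3.33 ± 0.23 log2 at 8 weeks (SE, limma, adjusted p = 3.33e-06) and by 3.88 ± 0.23 at 10 months (adjusted p = 3.56e-07). Jag1, a ligand of the Serrate type, had 10.23 and 9.91 in YFP basal cells at 8 weeks, against 7.84 and 7.97 in YFP luminal cells. At 10 months it had 11.12 and 10.88 in YFP basal cells, against 7.67 and 7.81 in YFP luminal cells. The Jag1 differences were 2.16 ± 0.32 (limma adjusted p = 0.000469) and 3.26 ± 0.32 (adjusted p = 1.15e-05). Of the 10 genes 6 did not overlap between the layers at 8 weeks and 8 at 10 months, Jag1 and Dll1 among them. The share over all genes is not known, so these counts are not read as a result.

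Notch3, a receptor, had the opposite order. It had 8.02 and 8.96 in YFP basal cells at 8 weeks, against 9.46 and 9.48 in YFP luminal cells. At 10 months it had 6.26 and 7.34 in YFP basal cells, against 9.37 and 9.40 in YFP luminal cells. Luminal arrays were nearly level, and basal ones were lower and scattered. The difference was -0.98 ± 0.32 at 8 weeks (limma adjusted p = 0.0347) and -2.58 ± 0.32 at 10 months (adjusted p = 6.24e-05). At 8 weeks the call was lost without either YFP luminal array (adjusted p = 0.122 without replicate 1 and 0.114 without replicate 2) or YFP basal replicate 1 (0.316), which had the lower of the 2 basal values, and with all 28 arrays in the fit (0.281). In both YFP basal groups replicate 2 had the higher Notch3. It also had the higher endothelial, pericyte, luminal, basal, fibroblast, immune and adipocyte marker means. Its endothelial and pericyte means were 7.41 and 6.23 at 8 weeks and 7.17 and 5.94 at 10 months. Its luminal mean was 8.33 at 8 weeks, against 8.05 in replicate 1, and 7.53 at 10 months, against 6.78. The part of these markers in the Notch3 values was not tested. The pericyte mean, over 6 markers, was 5.40 to 6.23 in YFP basal cells, against 4.42 to 5.02 in YFP luminal cells.

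Notch1, a receptor that both layers expressed, was higher in YFP basal cells at 10 months by 0.58 ± 0.18 (limma adjusted p = 0.0178), with 8.91 and 9.26 against 8.35 and 8.66 in YFP luminal cells. The call was lost without YFP luminal replicate 1 (adjusted p = 0.156) or YFP basal replicate 2 (0.148), and with the mean of its 2 probe sets (0.41 ± 0.20, adjusted p = 0.119) or all 28 arrays in the fit (0.311). At 8 weeks its difference of 0.41 ± 0.18 did not pass (adjusted p = 0.0967). Hes1 fell in YFP basal relative to YFP luminal cells at 10 months by 1.15 ± 0.42 on the log2 scale (limma adjusted p = 0.0397), with 5.40 and 6.04 against 6.81 and 6.93. That call was lost without either YFP luminal array (adjusted p = 0.105 and 0.147) or YFP basal replicate 1 (0.25), and with no filter on dim probe sets (0.0533), quantile normalization (0.0642) or all 28 arrays in the fit (0.0638). At 8 weeks the values were 5.35 and 6.25 in YFP basal cells, against 6.66 and 7.07 in YFP luminal cells, a difference of -1.06 ± 0.42 that missed the threshold (adjusted p = 0.0703). It passed without YFP basal replicate 2 (-1.51, adjusted p = 0.0378).

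In all, 3 of 9 tested genes were called at 8 weeks, where 30.3% of all genes were, and 5 of 9 at 10 months, where 43.4% were. Hey2 was too dim for a test in sorted cells. Notch2, the receptor with the smallest range of group means at 0.81 log2, differed by 0.09 ± 0.22 and 0.22 ± 0.22 between the layers. Hey1 and Heyl were not called at either time. Endothelial markers moved with the layer: 8 of 12 were higher in YFP basal cells at 8 weeks and 11 of 12 at 10 months, and 4 and 3 of 6 pericyte markers were. With the endothelial mean as a covariate Dll1 (3.09 ± 0.32 and 3.63 ± 0.33), Jag1 (1.92 ± 0.46 and 3.00 ± 0.47) and Notch3 (-1.64 ± 0.39 and -3.26 ± 0.40) were still called at 8 weeks and 10 months, and Notch1 at 10 months was not (0.46 ± 0.26, limma adjusted p = 0.224). Hes1 was then lower in YFP basal cells at both times (-2.16 ± 0.42 and -2.29 ± 0.43). With the pericyte mean, an alternative added after seeing the data, Jag1 at 8 weeks kept a difference of 2.10 ± 0.65 but not its call (limma adjusted p = 0.0932), and neither did Notch1 at 10 months (0.31 ± 0.36, adjusted p = 0.593).

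**Figure D1:**
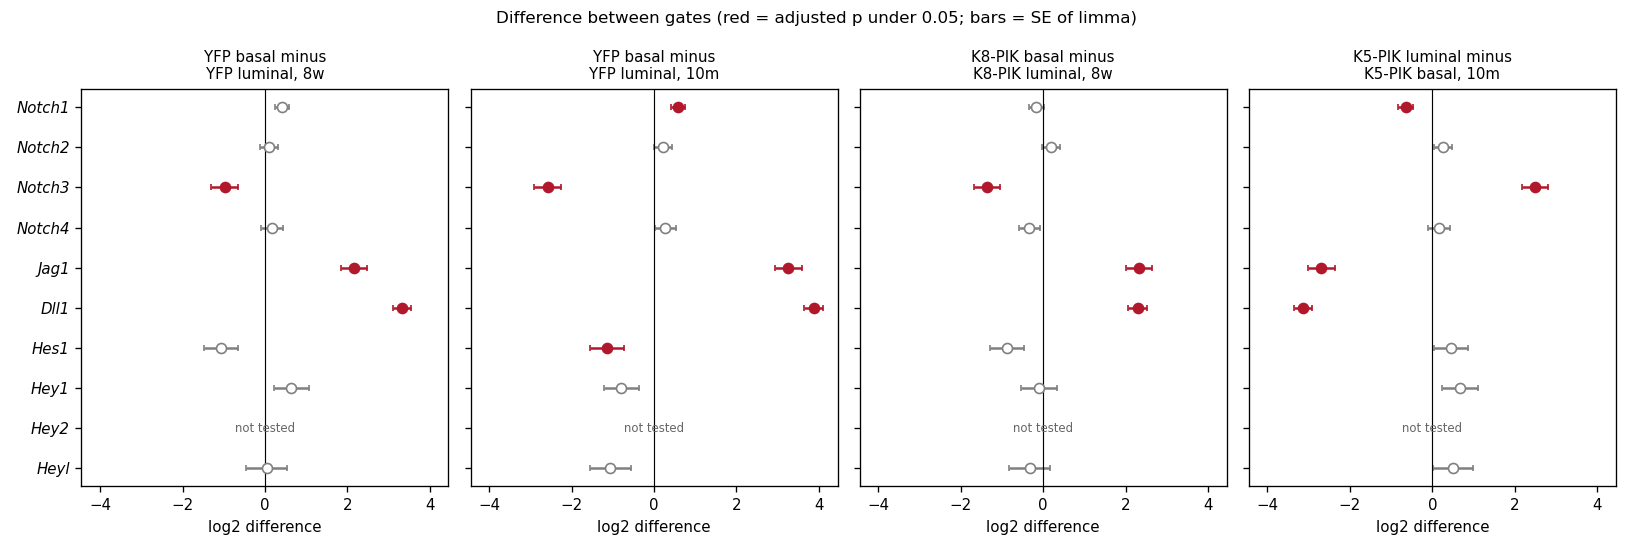
Log2 difference between gates for the 10 Notch genes in 4 pairs of sorted groups, 2 arrays each (points, limma estimate; bars, SE; red, adjusted p under 0.05). Jag1 and Dll1 are on the basal side and Notch3 on the luminal side in every panel, and the right-hand panel has luminal minus basal, so its signs run the other way.

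Over 59 tested pathway genes beside the 10, 8 were higher and 11 lower in YFP basal cells at 8 weeks, and 11 higher and 14 lower at 10 months. These are 32.2% and 42.4% of them, near the 30.3% and 43.4% of all genes. Of 9 receptor processing genes 5 were lower in YFP basal cells at 8 weeks and 6 at 10 months, none higher, with a median difference of -0.82 and -1.05 against -0.095 and -0.124 over all genes. They included Adam10, the protease of the first ligand-induced cut (-1.71 ± 0.40 and -1.75 ± 0.40), and the gamma-secretase subunits Aph1c (-1.02 ± 0.26 and -1.91 ± 0.26), Aph1a (-1.01 ± 0.27 and -1.08 ± 0.27) and Psenen (-0.84 ± 0.27 and -1.23 ± 0.27). Of the nuclear complex, Rbpj was higher in YFP basal cells at 10 months (0.94 ± 0.25, limma adjusted p = 0.00926), as was the corepressor Spen at both times (0.66 ± 0.18 and 1.22 ± 0.18). Numbl, a relative of the Notch antagonist Numb, was higher in YFP basal cells (1.52 ± 0.25 and 1.45 ± 0.25), and the ubiquitin ligase Dtx4 of the Deltex family was lower (-2.36 ± 0.32 and -2.27 ± 0.32). Among other genes linked to Notch as targets, Id4, an inhibitor of bHLH factors, was higher in YFP basal cells (2.81 ± 0.34 and 3.34 ± 0.34), while Hes6, Bhlhe41 and Ccnd1 were lower at both times. Of the microfibril proteins that can bind Notch, Mfap2 was higher (1.27 ± 0.25 and 1.29 ± 0.25).

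Age was compared within each normal layer. Notch3 fell in YFP basal cells at 10 months relative to 8 weeks by 1.69 ± 0.32 on the log2 scale (limma adjusted p = 0.0318), the only 1 of 9 tested genes called, with 1.27% of all genes called. Both 10-month values, 6.26 and 7.34, lay below both 8-week values, 8.02 and 8.96. The call was lost without YFP basal replicate 2 of 8 weeks (-1.22, adjusted p = 0.158), without replicate 1 of 10 months (-1.15, adjusted p = 0.302) and with the pericyte mean as covariate (-1.37 ± 0.26, adjusted p = 0.0551). The luminal marker mean in YFP basal cells was 8.05 and 8.33 at 8 weeks, against 6.78 and 7.53 at 10 months. Of 13 luminal markers 1 was called lower at 10 months and 0 higher, with a median difference of -0.95. Their part in the Notch3 result was not tested. In YFP luminal cells Notch3 was nearly the same at both times (-0.08 ± 0.32, limma adjusted p = 0.979). The difference between these age effects was -1.60 ± 0.45 and did not pass (limma adjusted p = 0.178). Of 9 genes 0 did, where 0.0532% of all genes were called. An unadjusted p under 0.05 was found for 3 of the 9 and for 1654 of all 13150 genes. Jag1 had a difference of 0.92 ± 0.32 in YFP basal cells at 10 months over 8 weeks and did not pass either (adjusted p = 0.146). None of 9 genes was called between YFP luminal cells of the 2 times, where 0.0608% of all genes were. None of the 9 had an unadjusted p under 0.05, and 1227 of all 13150 genes did.

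PIK cells sorted through the gate of the untargeted layer were compared with cells of the other gate that carry the same alleles at the same time. K8-PIK basal cells at 8 weeks had Dll1 at 8.40 and 8.18, against 6.43 and 5.57 in K8-PIK luminal cells. They had Jag1 at 10.73 and 10.75, against 9.11 and 7.73 in K8-PIK luminal cells. K8-PIK luminal replicate 1 was the higher of its group for both ligands. Of the 10 genes 6 did not overlap between the gates, both ligands among them. The differences were 2.29 ± 0.23 for Dll1 (limma adjusted p = 3.47e-05) and 2.32 ± 0.32 for Jag1 (adjusted p = 0.000359). Notch3 had 7.74 and 7.61 in K8-PIK basal cells, against 8.96 and 9.13 in K8-PIK luminal cells (-1.37 ± 0.32, adjusted p = 0.00958). Notch3 was not called without K8-PIK luminal replicate 2 (adjusted p = 0.0762), K8-PIK basal replicate 1 (0.0505) or K8-PIK basal replicate 2 (0.0526), or with all 28 arrays in the fit (0.17). These were 3 of 9 genes tested, where 19.5% of all genes were called. No endothelial marker was called between these gates.

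K5-PIK luminal cells at 10 months had Dll1 at 5.82 and 5.72, against 8.83 and 8.99 in K5-PIK basal cells. They had Jag1 at 7.60 and 7.71, against 10.45 and 10.24 in K5-PIK basal cells, and Notch3 at 9.10 and 9.27, against 6.77 and 6.61. The gates were far apart for all 3 genes, at -3.14 ± 0.23 for Dll1 (limma adjusted p = 1.95e-06), -2.69 ± 0.32 for Jag1 (adjusted p = 6.78e-05) and 2.50 ± 0.32 for Notch3 (adjusted p = 0.000116). Notch1 was lower in K5-PIK luminal cells (-0.65 ± 0.18, adjusted p = 0.0169), a call lost without replicate 1 of the luminal (0.113) or of the basal cells (0.0862), with the pericyte mean as covariate (0.206) and with all 28 arrays in the fit (0.354). In this pair 4 of 9 genes were called, where 23.6% of all genes were, and again no endothelial marker was. Rbpj (-1.01 ± 0.25), Spen (-0.88 ± 0.18), Numbl (-0.97 ± 0.25) and Id4 (-2.52 ± 0.34) were lower in K5-PIK luminal than in K5-PIK basal cells.

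The oncogene was then set against YFP cells of the same gate. In K5-PIK basal cells at 10 months the targets Hes1 and Hey1 and the receptor Notch1 were higher than in YFP basal cells. Hes1 had 7.14 and 7.10 in K5-PIK basal cells, against 5.40 and 6.04 in YFP basal cells (1.40 ± 0.42, limma adjusted p = 0.0379). Hey1 had 7.80 and 8.28 in K5-PIK basal cells, against 6.28 and 7.08 in YFP basal cells (1.36 ± 0.43, adjusted p = 0.04998). Notch1 had 9.70 and 9.59 in K5-PIK basal cells, against 8.91 and 9.26 in YFP basal cells (0.56 ± 0.18, adjusted p = 0.0453). No array of either group overlapped for these genes, which held for 6 of the 10 members in all. They were 3 of 9 tested, where 16.3% of all genes were called, and the calls were close to the threshold. Leaving out YFP basal replicate 1, K5-PIK basal replicate 1 or K5-PIK basal replicate 2 left 0 of them called, and without YFP basal replicate 2 only Notch1 was. The lowest adjusted p in the first 3 cases was 0.253, 0.0662 and 0.139. With all 28 arrays in the fit none was called, and Notch1 was not called with the mean of its 2 probe sets either (0.49 ± 0.20, adjusted p = 0.112).

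The ligands were lower in K5-PIK basal cells but not called, at -0.65 ± 0.32 for Jag1 (limma adjusted p = 0.177) and -0.49 ± 0.23 for Dll1 (adjusted p = 0.15). Endothelial marker RNA moved with this contrast, with 7 of 12 markers lower in K5-PIK basal cells, whose mean was 5.49 and 4.46, against 6.14 and 7.17 in YFP basal cells. With that mean as covariate the difference was 1.91 ± 0.62 for Hey1 (adjusted p = 0.103) and 0.68 ± 0.26 for Notch1 (adjusted p = 0.152), and only Hes1 was called. Around the receptors, the gamma-secretase subunits Aph1c (1.22 ± 0.26), Aph1b (0.99 ± 0.26) and Ncstn (0.91 ± 0.19) rose in K5-PIK basal cells, as did Pofut1, which puts fucose on Notch (1.00 ± 0.18). Gxylt2, which extends another Notch sugar, fell by 1.87 ± 0.41 on the log2 scale. Of 59 pathway genes 7 rose and 3 fell, which is 16.9% of them, near the 16.3% of all genes.

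In the other gates the oncogene contrast called none of the 10 genes. K8-PIK against YFP luminal cells at 8 weeks gave 0 of 9 by limma, where 0.350% of all genes were called. An unadjusted p under 0.05 was found for 1 of the 9 and for 1441 of all 13150 genes. Jag1 there was called without K8-PIK luminal replicate 2 (1.21, limma adjusted p = 0.0346), which leaves 1 K8-PIK array whose basal marker mean was 7.24, against 6.51 in the array left out; their part in the result was not tested. K8-PIK basal against YFP basal cells at 8 weeks gave 0 of 9, where 0.418% of all genes were called. An unadjusted p under 0.05 was found for 4 of the 9 and for 1834 of all 13150 genes. The ligand differences there were 0.67 ± 0.32 for Jag1 and -0.53 ± 0.23 for Dll1. K5-PIK luminal against YFP luminal cells at 10 months gave 0 of 9, where 6.40% of all genes were called. An unadjusted p under 0.05 was found for 2944 of all 13150 genes and for 2 of the 9. These 2 were Hey1 at 1.25 ± 0.43 (limma adjusted p = 0.108) and Notch1 at 0.49 ± 0.18 (adjusted p = 0.115). The ligand differences in that contrast were -0.08 ± 0.32 for Jag1 and 0.24 ± 0.23 for Dll1. The contrasts of K8-PIK basal with YFP basal cells and of K5-PIK luminal with YFP luminal cells include a change of Cre driver. The lineage difference of each member did not differ by genotype at either time after adjustment. By limma 0 of 9 were called at 8 weeks and at 10 months, where 0.00760% and 7.15% of all genes were. An unadjusted p under 0.05 was found for 2 and 1 of the 9, and for 1275 and 3537 of all 13150 genes. The largest such term was that of Dll1 at 8 weeks (-1.04 ± 0.32, adjusted p = 0.324).

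**Figure D2:**
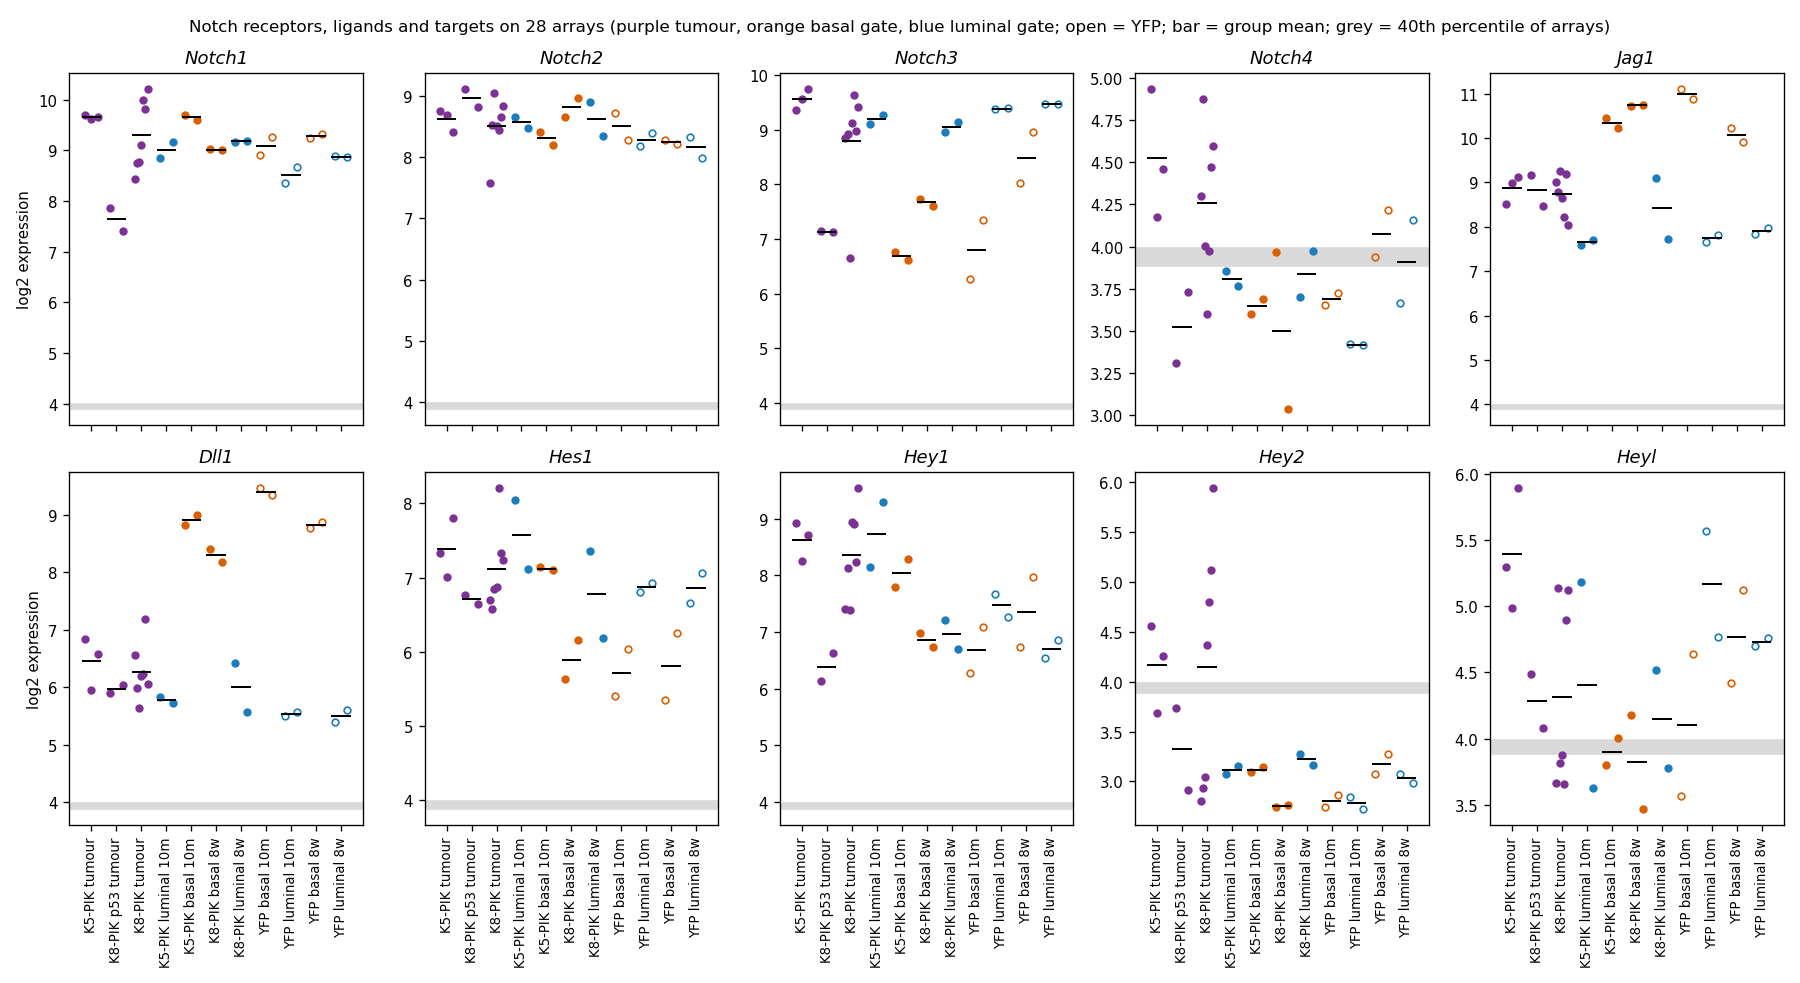
Log2 expression of each Notch gene on the 28 arrays (points, arrays; bars, group means; purple, tumours; orange, basal gate; blue, luminal gate; open symbols, YFP; grey band, 40th percentile of the arrays; each panel has its own vertical scale). Jag1 and Dll1 are highest in the 4 basal groups, Notch3 has its lowest means in basal cells and p53-deleted tumours, and Hey2 rises above the band on 6 tumour arrays only.

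Tumours were compared with the YFP cells of the layer that the driver targets, taken over both times. Both ligands were lower, and Notch3, Hes1 and Hey1 higher, in K5-PIK tumours than in normal basal cells. Dll1 had 6.84, 5.95 and 6.58 in K5-PIK tumours, against 8.78 to 9.47 in the 4 YFP basal arrays (-2.66 ± 0.27, limma adjusted p = 3.76e-06). Jag1 had 8.51, 8.99 and 9.12 in K5-PIK tumours, against 9.91 to 11.12 in YFP basal arrays (-1.66 ± 0.30, adjusted p = 0.000398). Notch3 was higher, with 9.37, 9.56 and 9.75 in K5-PIK tumours, against 6.26 to 8.96 in YFP basal arrays (1.92 ± 0.46, adjusted p = 0.00349). None of these genes overlapped between the groups, which held for 7 of the 10 members in all. Hes1 had 7.34, 7.01 and 7.81 in K5-PIK tumours, against 5.35 to 6.25 in YFP basal arrays (1.62 ± 0.35, adjusted p = 0.00182). Hey1 had 8.93, 8.26 and 8.71 in K5-PIK tumours, against 6.28 to 7.97 in YFP basal arrays (1.62 ± 0.44, adjusted p = 0.00858). Both targets were thus above every normal basal array. Hey1 missed the threshold without YFP basal replicate 1 of 8 weeks (1.31, adjusted p = 0.0505). The 5 calls were among 10 genes tested, where 30.0% of all genes were called.

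The dim genes Notch4 (0.64 ± 0.26, adjusted p = 0.0687), Hey2 (1.18 ± 0.54, adjusted p = 0.107) and Heyl (0.96 ± 0.44, adjusted p = 0.104) had positive differences that did not pass. In a fit of only the groups in the contrast 9 of the 10 genes were called, Notch1, Notch4, Hey2 and Heyl with them. Over all settings tried, 2274 to 4557 genes were called in this contrast, against 4102 in the main fit. Hey2 was above the 40th percentile on 2 of 3 K5-PIK tumours and on no YFP basal array. It thus passed the filter only through the tumours. Notch4 was above it on 3 of 3 K5-PIK tumours and, of YFP basal arrays, on 1 at 8 weeks only. Their added calls are no separate evidence of a rise. The markers of the layers moved as well: 10 of 13 luminal markers were higher in K5-PIK tumours than in YFP basal cells (median difference 2.04) and 8 of 12 basal markers were lower (median -1.73), and their part in these results was not tested. Endothelial markers were lower in K5-PIK tumours for 6 of 12, and of 6 pericyte markers 1 was higher and 1 lower. With the endothelial mean as covariate Dll1 (-2.28 ± 0.32), Jag1 (-1.32 ± 0.36) and Notch3 (2.27 ± 0.57) were still called, Notch4 and Heyl were called as well, and Hey1 had 1.64 ± 0.56 (limma adjusted p = 0.0524).

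Receptor processing genes were higher in K5-PIK tumours than in YFP basal cells for 5 of 9, led by Aph1c (1.77 ± 0.30) and Adam10 (1.55 ± 0.31). The nuclear complex went the other way, with 5 of 9 lower, the largest being Rbpj (-1.31 ± 0.27), Spen (-0.74 ± 0.15), the coactivator Maml1 (-0.64 ± 0.15) and Snw1 (-0.62 ± 0.22). Ccnd1, the cyclin of the early cell cycle, rose by 1.86 ± 0.28, and Id4 fell by 1.65 ± 0.45 on the log2 scale. Of 59 pathway genes 13 rose and 12 fell, which is 42.4% of them, against 30.0% of all genes.

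Against K5-PIK basal cells at 10 months, which carry the same alleles, 3 of 10 genes were called, where 17.3% of all genes were. Notch3 was higher in K5-PIK tumours by 2.87 ± 0.55 (limma adjusted p = 0.00144), Dll1 fell by 2.45 ± 0.32 (adjusted p = 5.83e-05) and Jag1 fell by 1.47 ± 0.35 (adjusted p = 0.00738). Jag1 was not called without K5-PIK basal replicate 1 (adjusted p = 0.0807). Here too 9 of 13 luminal markers were higher and 7 of 12 basal markers lower in K5-PIK tumours. Hes1 and Hey1 differed by 0.27 ± 0.42 and 0.59 ± 0.53 and were not called. Against K5-PIK luminal cells 0 of 10 were called by limma, where 0.637% of all genes were. An unadjusted p under 0.05 was found for 3 of the 10 and for 1954 of all 13663 genes. Jag1 was the most different of the 10 at 1.22 ± 0.35 (limma adjusted p = 0.112), with no overlap, which held for 6 of the 10.

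K8-PIK tumours were compared with YFP luminal cells. Jag1 had a lowest value of 8.05, a median of 8.80 and a highest of 9.26 in K8-PIK tumours, against 7.67 to 7.97 in the 4 YFP luminal arrays (0.92 ± 0.24, limma adjusted p = 0.0207). Dll1 had 5.64, 6.20 and 7.18 in K8-PIK tumours, against 5.40 to 5.60 in YFP luminal arrays (0.75 ± 0.22, adjusted p = 0.0348). Every K8-PIK tumour lay above every YFP luminal array for both ligands. In the same contrast 5 of 12 basal markers (median difference 1.52) and 2 of 6 fibroblast markers were higher and 2 of 13 luminal markers lower; their part in these results was not tested. Hey1 had 7.38, 8.24 and 9.54 in K8-PIK tumours, against 6.55 to 7.68 in YFP luminal arrays (1.28 ± 0.36, adjusted p = 0.0279), and the groups overlapped. These were 3 of 10 genes tested, where 10.6% of all genes were called. All 3 calls were lost when any 1 of the 4 YFP luminal arrays was left out, with adjusted p from 0.0559 to 0.144, and that of Dll1 also without K8-PIK tumour replicate 1 (0.0608) or with quantile normalization (0.0524). They were also lost in a fit of only the groups in the contrast (adjusted p from 0.0558 to 0.112) and with the pericyte mean as covariate, which was 4.23 to 6.61 in K8-PIK tumours, against 4.42 to 5.02 in YFP luminal arrays, with adjusted p from 0.075 to 0.215. Against K8-PIK luminal cells at 8 weeks 0 of 10 were called by limma, where 2.50% of all genes were. An unadjusted p under 0.05 was found for 2570 of all 13663 genes and for 1 of the 10. This was Hey1 at 1.40 ± 0.46 (limma adjusted p = 0.106).

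The 7 K8-PIK tumours varied widely among themselves. Notch1 had values of 8.44 to 10.22 and Hey1 of 7.38 to 9.54. Hey2, a target seen in the heart and vessels as well, had 2.81, 2.94 and 3.04 in replicates 1, 2 and 3, and 4.37, 4.80, 5.12 and 5.94 in replicates 4 to 7. Replicates 1, 2 and 3 lay at the level of sorted cells, and the other 4 were above the 40th percentile of their arrays. Notch1 in the same order had 8.44, 8.74 and 8.77, and then 9.10, 10.00, 9.82 and 10.22, so that the 4 tumours with Hey2 above the percentile also had the 4 highest Notch1 values. This match was seen in the same 7 tumours after looking at the values, and it was not tested. Marker levels differed among the same tumours: the fibroblast mean was 5.66, 5.08, 6.25 and 6.59 in replicates 4 to 7, against 6.52, 8.31 and 7.76 in replicates 1, 2 and 3, and the luminal mean was 9.40, 9.96, 9.19 and 9.61, against 8.56, 9.40 and 7.50. The pericyte mean was 4.76, 4.23, 5.64 and 5.67 in replicates 4 to 7, against 5.82, 6.61 and 5.76 in replicates 1, 2 and 3. The endothelial mean was 4.90, 4.44, 5.68 and 4.67, against 5.19, 5.59 and 4.69, and overlapped. The part of these markers in the Hey2 and Notch1 values was not tested. Since Hey2 falls into separate sets of fewer than 6 tumours, no correlation is given for it.

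For the other targets, 18 pairs of a receptor or ligand with Hes1, Hey1 or Heyl were examined over the 7 tumours by exact permutation, two-sided, and 5 had an unadjusted p under 0.05 and none after Benjamini-Hochberg adjustment. Notch1 and Hes1 had r = 0.784 (exact permutation p = 0.0194, adjusted p = 0.152) and rho = 0.857 (exact permutation p = 0.0238), and r = 0.916 without the 2 tumours farthest from the median of Notch1. Jag1 and Hey1 had r = -0.872 (exact permutation p = 0.0133, adjusted p = 0.152) and rho = -0.857 (exact permutation p = 0.0238), and r = -0.702 without the 2 farthest. Notch3 and Hey1 had r = 0.705 (exact permutation p = 0.0321, adjusted p = 0.152) and rho = 0.893 (exact permutation p = 0.0123), and r = 0.957 without the 2 farthest. Notch1 and Hey1 had r = 0.803 (exact permutation p = 0.0411, adjusted p = 0.152) and rho = 0.786 (exact permutation p = 0.048), and r = 0.536 without the 2 farthest. Notch4 and Heyl had r = 0.811 (exact permutation p = 0.0423, adjusted p = 0.152) and rho = 0.75 (exact permutation p = 0.0663), and r = 0.865 without the 2 farthest. Leaving out the 2 farthest narrows the range, so these r values cannot show which tumours a relation rests on. The part of the marker differences among these tumours in the relations was not tested.

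**Figure D3:**
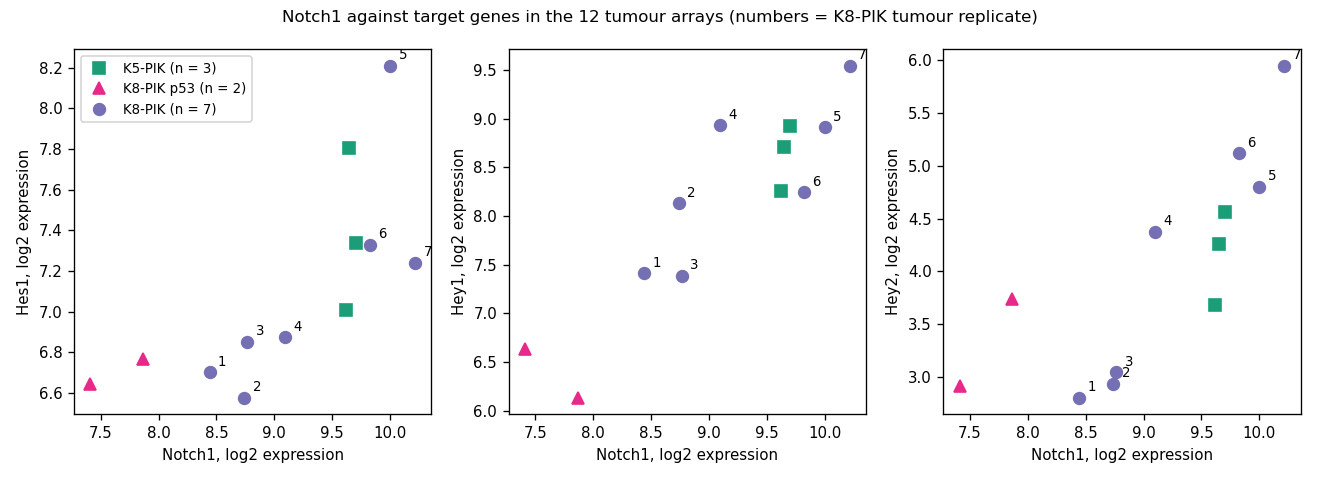
Hes1, Hey1 and Hey2 (vertical axes, log2 expression) against Notch1 (horizontal axes, log2 expression) on the 12 tumour arrays (squares, K5-PIK; triangles, K8-PIK p53; circles, K8-PIK with the replicate number). The p53-deleted tumours have the lowest Notch1, at 7.87 and 7.41, and K8-PIK replicates 4 to 7 have both Notch1 of 9.10 to 10.22 and Hey2 of 4.37 to 5.94.

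K8-PIK tumours with deleted p53 alleles had the lowest group means of Notch1 (7.64) and, among tumours, of Notch3 (7.13), and the highest of Notch2 (8.96). The Notch2 step to the next group, 0.15, was under its pooled SD of 0.33 between replicates. Notch1 had 7.87 and 7.41 in p53-deleted tumours, against 8.35 to 8.88 in YFP luminal arrays (-1.05 ± 0.36, limma adjusted p = 0.0385). Notch3 had 7.15 and 7.12 in p53-deleted tumours, against 9.37 to 9.48 in YFP luminal arrays (-2.30 ± 0.52, adjusted p = 0.00385). Jag1 had 9.18 and 8.47 in p53-deleted tumours, against 7.67 to 7.97 in YFP luminal arrays (1.00 ± 0.34, adjusted p = 0.0359). No array overlapped for these 3 of 10 genes, which held for 6 of the 10 in all, and 24.0% of all genes were called. Jag1 was not called without any 1 of the 4 YFP luminal arrays (adjusted p from 0.0572 to 0.0802) or p53-deleted replicate 1 (0.354), and Notch1 not without any 1 of the 4 (0.0554 to 0.0929), p53-deleted replicate 1 (0.0856) or replicate 2 (0.252). Notch1 was not called with the mean of its 2 probe sets either (-0.76 ± 0.36, adjusted p = 0.128). With the pericyte mean as covariate only Notch3 was called (-2.20 ± 0.54). Fibroblast markers were higher in p53-deleted tumours for 4 of 6 tested, with a mean of 7.72 to 8.29, against 5.00 to 6.08 in YFP luminal arrays. Of the layer markers 8 of 13 luminal ones were lower (median difference -1.43), and of 12 basal ones 4 were higher and 1 lower; their part in these results was not tested. Numb, which antagonises Notch, fell by 2.51 ± 0.55 on the log2 scale, Gxylt2 rose by 3.94 ± 0.56 and the microfibril gene Mfap5 by 3.74 ± 0.82.

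Set against p53-intact K8-PIK tumours, p53-deleted ones had 0 of 10 genes called by limma, where 0.325% of all genes were called. An unadjusted p under 0.05 was found for 4 of the 10 and for 2615 of all 13244 genes. Notch1 was at -1.66 ± 0.43 (adjusted p = 0.106) and Hey1 at -1.98 ± 0.50 (adjusted p = 0.102), neither with any overlap, since Hey1 had 6.14 and 6.64 in p53-deleted tumours, against 7.38 to 9.54 in p53-intact ones. Notch3 was at -1.66 ± 0.58 (adjusted p = 0.164) and Notch4 at -0.74 ± 0.31 (adjusted p = 0.216). Without p53-intact replicate 3, whose Notch3 of 6.65 lay below both p53-deleted tumours, Notch1 (adjusted p = 0.0344), Notch3 (0.00146) and Hey1 (0.0215) were called. The same genes were called when all 28 arrays shared the estimate of spread, with adjusted p of 0.00699, 0.0367 and 0.0151. Over all genes that fit called 1158, against 43 in the main fit. The luminal marker mean was 7.50 in p53-intact replicate 3, 8.56 to 9.96 in the other p53-intact tumours, and 7.72 and 8.49 in p53-deleted ones. The fibroblast mean was 7.76, 5.08 to 8.31, and 7.72 and 8.29 in the same order. No luminal or fibroblast marker was called in the main fit, with median differences of -0.97 and 1.54. The part of these markers in the results was not tested.

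Between K5-PIK and K8-PIK tumours 0 of 10 genes passed by limma, and 0.00% of all genes were called. An unadjusted p under 0.05 was found for 1225 of all 13244 genes and for 1 of the 10. That gene was Heyl at 1.08 ± 0.39 (adjusted p = 0.484), with 5.30, 4.99 and 5.89 in K5-PIK tumours, against a lowest of 3.65, a median of 3.88 and a highest of 5.14 in K8-PIK tumours. The ligands, far apart between the layers that the drivers target, differed by 0.14 ± 0.28 for Jag1 and 0.19 ± 0.29 for Dll1 between the 2 kinds of tumour, and Notch3 by 0.77 ± 0.50.

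**Figure D4:**
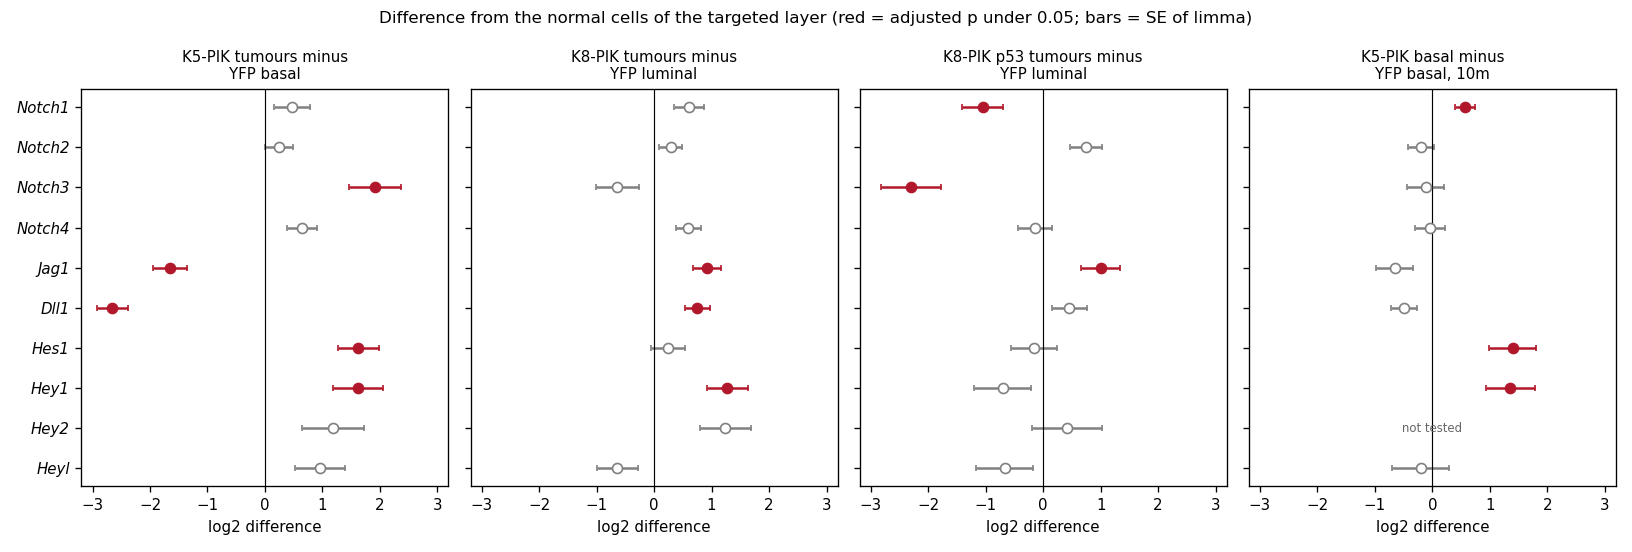
Log2 difference of tumours from YFP cells of the targeted layer for 3 kinds of tumour, and of K5-PIK basal from YFP basal cells at 10 months (points, limma estimate; bars, SE; red, adjusted p under 0.05). Jag1 and Dll1 are below 0 in K5-PIK tumours and above 0 in both kinds of K8-PIK tumour, and Notch3 is above 0 in K5-PIK tumours and below 0 in p53-deleted ones.

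Across the 11 group means the ligands had one pattern, with r = 0.955 between Jag1 and Dll1, and Notch3 the reverse, with r = -0.778 to Jag1 and -0.720 to Dll1; groups share arrays with the comparisons above, and these are descriptions. Dll1 was highest in YFP basal cells at 10 months (9.40), then in K5-PIK basal (8.91), YFP basal at 8 weeks (8.83) and K8-PIK basal cells (8.29), and all other groups had means of 6.46 or less. Jag1 was highest in YFP basal cells at 10 months (11.12 and 10.88), then in K8-PIK basal (10.74), K5-PIK basal (10.34) and YFP basal cells at 8 weeks (10.07), and all others had 8.87 or less. The 3 steps among the basal groups of Jag1 were smaller than its pooled SD of 0.41 between replicates. For Dll1 only the step of 0.08 between K5-PIK basal and YFP basal cells at 8 weeks was under its pooled SD of 0.37. Notch3 was highest in K5-PIK tumours (9.56) and lowest in K5-PIK basal cells (6.69). The steps from these to the next group, 0.09 and 0.11, were under its pooled SD of 0.64.

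The genes most like each member over these means, of 13663 compared, were Stac2 (r = 0.987), Elovl4 (0.984) and Dennd2a (0.981) for Jag1, and Glrp1 (0.990), Pla2r1 (0.986) and Fhod3 (0.986) for Dll1. For Notch3 they were Spint1 (0.978), Cldn4 (0.974), which is in the luminal marker list used here, and Fam25c (0.973). For Notch1 they were led by Map2 (0.935) and Ephx1 (0.935), for Hey1 by Hpca (0.965) and Rora (0.951), and for Hes1 by Hps1 (0.945). For Heyl they were led by Adh1 (0.958), for Hey2 by Irf7 (0.959), for Notch2 by Rab7 (0.878) and for Notch4 by BC006965 (0.914) and the pericyte marker Kcnj8 (0.880).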

How the data were processed

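RNA of 28 flow-sorted samples was hybridised to Affymetrix perfect-match arrays. The authors deposited log2 expression values of 45141 probe sets per array, between 1.67 and 12.7. Per the submitters' processing notes R 2.14.0 was used; background correction and normalization are not given in the sources used here, and no genome build is named. The values were used without further scaling. Of the annotated probe sets 28898 carry 1 symbol, 551 carry several, and 15692 probe sets have no entry; the last 2 sets were left out. Where a gene had several, the brightest on average was kept, giving 17097 genes.

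One mean per group was estimated by limma 3.58.1 (lmFit and eBayes, under R 4.3.3) over 16 sorted arrays (13150 genes), 12 tumour arrays (13244 genes) or, for tumours against sorted cells, all 28 (13663 genes). Genes above their array's 40th percentile on at least 2 arrays of a fit were tested. Calls are at a Benjamini-Hochberg adjusted p under 0.05 over all genes tested. The procedure was tested on simulated data. Groups came from the labels alone, which give no batch. Same-numbered replicates were not paired: their deviations from group means correlated at -0.08 to 0.39 over 28 pairs of groups.

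Named were the 10 members, up to 4 called genes with the largest change per other pathway list, the genes most like each member, and gate markers. The lists held 68 other pathway genes, 60 on the array. Members and lists were chosen with earlier results of these data known. Alternatives were other arrays in the fit, no filter, quantile normalization, the mean of probe sets, a marker mean as covariate, a replicate block and each replicate left out.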

Additional observations from a re-analysis of the deposited data

Results flagged for a closer look

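In the 7 K8-PIK tumours, 2 genes had a sample far from the others. Notch3 in replicate 3 was 6.65, with the next value at 8.84, and Notch2 in replicate 1 was 7.58, with the next at 8.44. The gap to the next value over the whole range (Dixon ratio) was 0.735 for Notch3 and 0.588 for Notch2, against a threshold of 0.568. Chance passes that threshold in about 1 of 20 groups, and 10 groups were examined.

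Some tumours moved the opposite way from others relative to the normal cells of their layer, with every tumour array on the stated side; the differences below were not tested. Between K5-PIK tumours over YFP basal cells and K8-PIK tumours over YFP luminal cells, the effect differed by -2.58 for Jag1 (-1.66 and 0.92) and -3.41 for Dll1 (-2.66 and 0.75). Between K5-PIK tumours over YFP basal cells and p53-deleted K8-PIK tumours over YFP luminal cells, it differed by 1.52 for Notch1 (0.47 and -1.05), 4.21 for Notch3 (1.92 and -2.30), -2.66 for Jag1 (-1.66 and 1.00) and -3.11 for Dll1 (-2.66 and 0.46). The 2 contrasts use different normal layers, which differ in these genes themselves.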

How the results depend on the processing

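Of 273 recomputed counts of called members, 237 stayed within 1.5 times, and none of the recomputed member differences changed sign with a call. Values are members called. The fit of all 28 arrays gave 3 instead of 5 between YFP basal and luminal cells at 10 months, 0 instead of 3 for K5-PIK over YFP basal cells, 0 instead of 1 for age in YFP basal cells and 3 instead of 0 for p53-deleted over p53-intact tumours. Over all genes that fit called 0 instead of 167 for age in YFP basal cells. For p53-deleted over p53-intact tumours it called 1158 instead of 43. Fitting only the groups in the contrast gave 0 instead of 3 for K8-PIK tumours over YFP luminal cells, 9 instead of 5 for K5-PIK tumours over YFP basal cells, 6 instead of 3 for p53-deleted tumours over YFP luminal cells and 5 instead of 3 for K5-PIK tumours over K5-PIK basal cells. Over all genes it called 4268 instead of 3278 for p53-deleted tumours over YFP luminal cells, and ranges for the other comparisons are given below. In both K5-PIK tumour contrasts the count included Hey2, which passed the filter only through tumour arrays. The unfiltered fit and the endothelial covariate each gave 1 instead of 3 for K5-PIK over YFP basal cells. Quantile normalization gave 1 instead of 0 for K5-PIK over YFP luminal cells and 5 instead of 3 for K5-PIK tumours over K5-PIK basal cells. The pericyte covariate, chosen after seeing the data, gave 0 instead of 1 for age in YFP basal cells, 0 instead of 3 for K8-PIK tumours and 1 instead of 3 for p53-deleted tumours over YFP luminal cells. The replicate block gave 8 for K5-PIK tumours over YFP basal cells, 1 for them over K5-PIK luminal cells and 5 over K5-PIK basal cells, and moved no other count of members by over 1.5 times. In K8-PIK tumours over YFP luminal cells it nevertheless lost Dll1 (limma adjusted p = 0.0809) and Hey1 (0.248) and gained Notch4 (0.033). No other group has replicates 4 to 7, so the block fits each of those K8-PIK tumours with a term of its own. They then add nothing to the K8-PIK mean or to the spread. Hey2 in that contrast went from 1.24 ± 0.44 to -0.03 ± 0.20 with the block. Of the 19 members called in sorted cells the fit of all 28 arrays lost 9. Beyond that design of the block, the cause of these changes was not tested.

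Leaving out 1 replicate at a time gave 3 to 5 for YFP basal over YFP luminal cells at 10 months, 0 to 1 for K8-PIK over YFP luminal cells, 0 to 1 for K5-PIK over YFP basal cells, 0 to 1 for age in YFP basal cells, 0 to 3 for p53-deleted over p53-intact tumours, 0 to 4 for K8-PIK tumours over YFP luminal cells, and 1 to 2 for p53-deleted tumours over YFP luminal cells. In the other comparisons the count of called members stayed within 1.5 times.

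Over all genes, calls moved more: the number called, with its range over all alternatives, was 3987 (463 to 4425) for YFP basal over YFP luminal cells at 8 weeks, 5713 (1731 to 6013) for the same at 10 months, 46 (4 to 70) for K8-PIK over YFP luminal cells, 2143 (343 to 2793) for K5-PIK over YFP basal cells, 2558 (1147 to 3007) for K8-PIK basal over K8-PIK luminal, 8 weeks, 55 (0 to 112) for K8-PIK basal over YFP basal, 8 weeks, 3097 (1581 to 3414) for K5-PIK luminal over K5-PIK basal, 10 months. It was 841 (100 to 1338) for K5-PIK luminal over YFP luminal, 10 months, 8 (0 to 23) for age in YFP luminal cells, 167 (0 to 473) for age in YFP basal cells, 1 (0 to 10) for the lineage by genotype term at 8 weeks, 940 (65 to 2359) for that term at 10 months, 7 (0 to 41) for the lineage by age term, 0 (0 to 150) for K5-PIK tumours over K8-PIK tumours. For the rest it was 43 (2 to 1158) for p53-deleted over p53-intact K8-PIK tumours, 1448 (312 to 2513) for K8-PIK tumours over YFP luminal cells, 4102 (2274 to 4557) for K5-PIK tumours over YFP basal cells, 3278 (1368 to 4268) for p53-deleted tumours over YFP luminal cells, 341 (0 to 1215) for K8-PIK tumours over K8-PIK luminal, 8 weeks, 87 (2 to 290) for K5-PIK tumours over K5-PIK luminal, 10 months, 2361 (930 to 3089) for K5-PIK tumours over K5-PIK basal, 10 months. The arrays' number and the 3 dim genes limit precision.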

Other observations

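Of the 59 other pathway genes 8 were called between the K8-PIK gates and 15 between the K5-PIK gates, which is 13.6% and 25.4% of them, against 19.5% and 23.6% of all genes. Mfap2 was higher in K8-PIK basal than in K8-PIK luminal cells (1.15 ± 0.25), as were Numbl (1.09 ± 0.25), Spen (0.63 ± 0.18) and Id4 (2.78 ± 0.34), while Aph1c (-1.20 ± 0.26) and Psenen (-0.89 ± 0.27) were lower. In K5-PIK luminal over K5-PIK basal cells Mfap2 fell by 1.39 ± 0.25 on the log2 scale, while Ccnd1 (1.59 ± 0.21) and Hes6 (1.22 ± 0.21) were higher. Hes6, a relative of Hes1, was also higher in K5-PIK luminal than in YFP luminal cells at 10 months (0.99 ± 0.21, limma adjusted p = 0.0191), and Dtx4 was lower there (-1.59 ± 0.32). Ccnd1 was the only 1 of 59 other pathway genes called between K8-PIK basal and YFP basal cells (1.07 ± 0.21, limma adjusted p = 0.0491).

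In p53-deleted tumours over YFP luminal cells the presenilin gene Psen2 (-1.37 ± 0.30), Aph1c (-1.43 ± 0.34) and Snw1 (-0.92 ± 0.25) were lower, and Rbpj (0.87 ± 0.30), Numbl (1.36 ± 0.26) and Id4 (1.58 ± 0.51) were higher. Of 59 pathway genes 9 were higher and 9 lower, which is 30.5%, against 24.0% of all genes. In K8-PIK tumours over YFP luminal cells 3 were higher and 1 lower, among them Id4 (1.30 ± 0.37) and Dtx4 (-1.13 ± 0.26).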
